A study of Mus musculus with 18 samples.

Results

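The response of wild-type (WT) mouse neutrophils to 4 h of GM-CSF was described across all expressed genes, from 3 libraries of unstimulated cells and 3 libraries of stimulated cells, chosen by their labels out of 18 libraries in the series. The cells were neutrophils sorted by flow cytometry from the bone marrow of 10-week-old WT mice. Unstimulated cells were lysed after sorting, and the others were cultured for 4 h with 100 ng/mL GM-CSF. Time in culture and GM-CSF changed together, since none of the libraries analysed here is of WT cells cultured in its absence. Whether the replicates came from separate mice is not in the labels. P-values therefore describe the spread among these libraries only, and that spread may be technical. The 3 WT libraries of 24 h with GM-CSF give later levels of the same genes. The series also holds 3 groups of libraries labelled CIS-/-, a knockout of Cish. They enter here through the shared estimate of the spread and the filter on low counts, and in no contrast. The unstimulated libraries labelled CIS-/- held 18.3, 20 and 17.9 CPM of Cish, above the unstimulated WT libraries, although the label names a knockout. Counts of RNA do not show whether the protein is made, and the genotype was not tested. At 4 h the libraries labelled CIS-/- held 237 to 243 CPM, against 1138 to 1155 CPM in WT, and at 24 h 233 to 243 CPM, against 1056 to 1069 CPM. Counts from a fit without the libraries labelled CIS-/- are given at the end.

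GM-CSF binds a receptor made of its own alpha chain, Csf2ra, and the signalling chain Csf2rb, which the receptors for IL-3 and IL-5 share. The beta chain carries the kinase JAK2, which phosphorylates STAT5, and the same receptor feeds the MAP kinase and PI3 kinase pathways. STAT5 moves to the nucleus and binds a TTC and a GAA set a few bases apart. Among its known targets are the SOCS family genes, whose proteins bind the receptor or its kinase and damp the signal, and survival genes of the BCL2 and PIM families. Neutrophils leave the marrow with granules packed with antimicrobial proteins, made mostly before the cell is mature, and GM-CSF is known for lengthening their short life and priming them to respond.

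Values are CPM, that is raw read counts scaled to a common library size corrected by TMM, which aligns the bulk of genes between libraries. A log2 fold change is the 4 h level over the unstimulated level, given ± SE, and a gene was called when its Benjamini-Hochberg adjusted p from edgeR's quasi-likelihood test was under 0.05. The 6 libraries held 13679004 to 17944849 counts, TMM factors were 0.91 to 1.04, and the 10 most abundant genes took 14.8 to 14.93% of the counts before culture and 9.806 to 9.846% at 4 h. Of 11569 genes tested, 8826 were called, which is 76.3%. Of all tested genes 4404 (38.1%) were called higher and 4422 (38.2%) lower. This split depends on the scaling, since without TMM factors 3623 were higher and 5315 lower. The 2122 genes that were called and at least 2-fold higher make 18.3% of the tested genes, and the 1882 at least 2-fold lower make 16.3%. The tails were uneven, since 609 genes (5.26%) were at least 8-fold higher and 128 (1.11%) at least 8-fold lower. In 9046 genes (78.2%) the libraries of the groups did not overlap. Each gene named below as having risen or fallen at 4 h is among these 9046 and was called. A median log2 fold change of -0.0156 over all tested genes is the base against which the gene lists below are read. Counts of called list members are read beside the 38.1% higher and 38.2% lower of all tested genes.

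**Figure D1:**
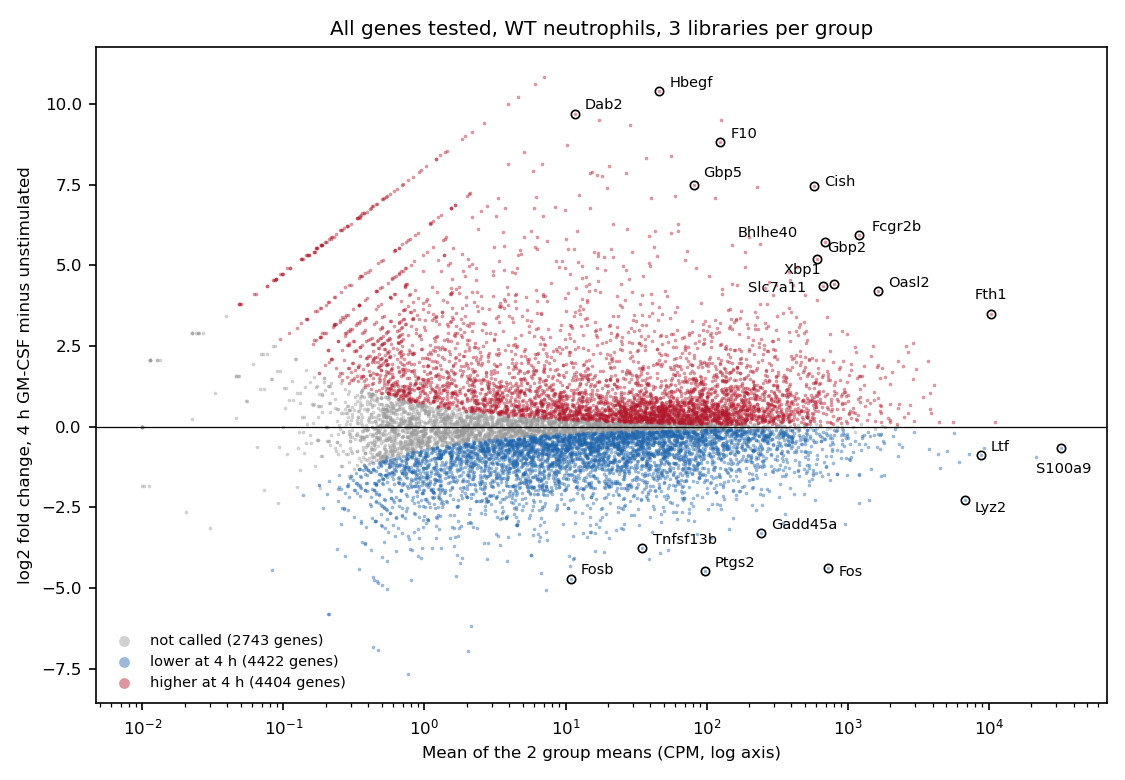
Change at 4 h against level for the 11569 tested genes. The x axis is the mean of both group means in CPM on a log axis, and the y axis is the log2 fold change, 4 h minus unstimulated. Red points are the 4404 genes higher at 4 h, blue points the 4422 lower and grey points those not called. Rises reach further from 0 than falls. Points on slanted lines at the left have few or no counts in unstimulated libraries, and their fitted values depend on the prior count.

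The sorted cells carried neutrophil transcripts at high levels in both groups. The 10 neutrophil markers summed to 112000 to 113000 CPM in unstimulated libraries and to 67100 to 68200 CPM at 4 h, with 8 of 10 lower. In bulk RNA, fewer cells of a kind and less RNA per cell cannot be told apart. Markers of B, T, NK and dendritic cells summed to at most 1.72, 7.95, 0.322 and 2.04 CPM in any of the 6 libraries, nearly all of the T cell sum being Cd3d. The 7 monocyte and macrophage markers summed to 764 to 801 CPM before and 708 to 747 CPM after, almost all from Ly6c2, Csf1r and Adgre1, which neutrophils can also carry, while Cx3cr1 and Mertk were at most 0.269 CPM. Eosinophil, basophil and mast cell markers summed to 32.8 to 34.3 CPM and then 15.3 to 20.2 CPM, erythroid markers to 29.6 to 32.7 CPM and then 22.2 to 26.2 CPM, and megakaryocyte markers to 2.32 to 3.43 CPM and then 3.58 to 5.22 CPM. Sums rose for 2 other lists, each through 1 or 2 genes. Stem and progenitor markers went from 17.6 to 18.9 CPM up to 134 to 145 CPM, all but a trace being Kit, the stem cell factor receptor, while Cd34, Flt3 and Meis1 were at most 0.408 CPM. Stroma and endothelium markers went from 12.5 to 13.1 CPM up to 396 to 409 CPM through the adhesion molecule Pecam1 and the collagen gene Col1a1, while Cdh5 and Cxcl12 were at most 0.202 CPM.

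The receptor subunits moved apart. The alpha chain Csf2ra held 799.7, 822 and 808 CPM in the unstimulated libraries and 690.1, 678 and 667 CPM at 4 h, a fall with a log2 fold change of -0.26 ± 0.03 (edgeR adjusted p = 2.23e-10). The signalling chain Csf2rb held 615, 624 and 622 CPM and then 1827, 1821 and 1873 CPM, and its log2 fold change was 1.57 ± 0.03 (edgeR adjusted p = 3.17e-48). Csf2rb2, the mouse paralog of the beta chain that serves the IL-3 receptor, rose from 56.2, 57.7 and 59.2 CPM to 359, 371 and 383 CPM. Each of these groups lay well clear of the other, with the 3 libraries of a group close together. Il3ra, the IL-3 receptor alpha chain, rose from 10.9 ± 0.535 to 30.5 ± 1.75 CPM (mean ± SD, n = 3). Csf1r, the receptor for the macrophage growth factor M-CSF, fell from 265 ± 5.14 to 61 ± 1.3 CPM. Csf3r, the G-CSF receptor, was at 4219 and 4689 CPM, a small difference that is called higher with TMM scaling and turns to -0.02 without it. In all, 4 of the 6 tested genes of this receptor list were called higher and 2 lower, with a median of 0.82.

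Behind the receptor, the kinase that it uses rose and both STAT5 genes fell. Jak2 held 117, 114 and 116 CPM unstimulated and 899, 919.6 and 898 CPM at 4 h, with a log2 fold change of 2.97 ± 0.04 (edgeR adjusted p = 2.28e-57). The 3 stimulated libraries were all above the highest unstimulated one by several fold. Stat5a fell from 26.3 ± 0.644 to 18 ± 1.3 CPM and Stat5b from 266 ± 5.64 to 158 ± 2.78 CPM, with log2 fold changes of -0.55 and -0.75. Stat2, which acts behind the type I interferon receptor, rose with a log2 fold change of 1.87, and Stat6 with 0.41. Stat4, Jak3 and Stat3 fell, with -2.19, -1.07 and -0.32. Of 11 tested genes of this list, 5 were called higher and 5 lower, and the median was -0.09.

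Feedback inhibitors of cytokine receptors were called higher in 12 of 17 tested members and lower in 3, with a median of 0.41. Cish, which encodes the SOCS family protein CIS, held 6.48, 6.52 and 6.5 CPM before culture and 1155, 1138 and 1153 CPM at 4 h. The 3 libraries of each group lay close together, and the log2 fold change was 7.46 ± 0.05 (edgeR adjusted p = 6.09e-72). Socs1, an inhibitor of JAK kinases that also restrains interferon receptors, rose from 12, 12.3 and 13.5 CPM to 242, 237 and 257 CPM, with a log2 fold change of 4.27 ± 0.06 (edgeR adjusted p = 2.77e-57). Socs3, which acts on the G-CSF and IL-6 receptors, was already at 678 ± 4.01 CPM and rose to 990.2 ± 12.7 CPM. Socs2 had no count in the unstimulated libraries and 35 counts at 4 h, at least 14.4-fold higher if 3 counts are taken as the floor of the whole group. Ptpn1, a tyrosine phosphatase that removes phosphate from JAK2, rose from 385, 396 and 383 CPM to 1932, 1887 and 1947 CPM. Usp18, a brake on the type I interferon receptor, had a log2 fold change of 1.26, Socs4 1.17 and the phosphatase gene Ptpn6 0.56. At 24 h Cish was at 1069, 1056 and 1056 CPM and Socs1 at 88.8, 84 and 93.1 CPM. Cish stayed near its 4 h level and Socs1 was lower again.

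Because Cish carries the largest rise of this list, the bases around its start are shown. The stretch is chr9:107296529-107296678 on the plus strand of GRCm38.p6, from RefSeq, and runs from 130 bases before the start to 20 bases after it. Capitals mark 2 matches of the STAT site TTCNNNGAA, at 0 and 11 bases from the start base.
Cish: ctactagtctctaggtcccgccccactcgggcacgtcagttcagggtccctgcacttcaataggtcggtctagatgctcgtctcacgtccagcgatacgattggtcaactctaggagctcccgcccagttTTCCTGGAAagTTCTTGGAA
The 300-base windows of RefSeq starts, 250 bases before and 50 after, could be matched by symbol to 8615 of the 11569 tested genes. Both strands were searched for each motif here, and a match describes letters only. TTCNNNGAA was found in 8.46% of the matched tested genes and in 9.55% of 27025 genes of the whole table. The share was 10.8% of 1495 genes that were called and at least 2-fold higher, 14.5% of 408 at least 8-fold higher, and 7.61% of 1393 at least 2-fold lower. Motifs of AP-1, NF-kB, ATF4-C/EBP, CRE and antioxidant elements were searched as well. Of the genes at least 8-fold higher 13% held the AP-1 motif, against 6.42% of the matched tested genes. These shares were 3.68% and 2.07% for NF-kB, 6.37% and 2.79% for ATF4-C/EBP, and 21.3% and 17.2% for the antioxidant motif. CRE went the other way, with 2.7% and 3.74%. A higher share among rises was therefore not particular to the STAT site.

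Several survival genes linked to STAT5 rose, and others of that list fell. Pim1, a kinase that promotes survival, rose from 372, 387 and 381 CPM to 1374, 1378 and 1392 CPM, with a log2 fold change of 1.86 ± 0.03 (edgeR adjusted p = 5.55e-52). Bcl2l1, the gene of BCL-XL, rose from 40.5, 38.8 and 39 CPM to 409, 403 and 427 CPM, with 3.39 ± 0.04 (edgeR adjusted p = 1.12e-57). Id1, an inhibitor of helix-loop-helix transcription factors, rose from 29.2 ± 2.66 to 296 ± 5.68 CPM. Pim3, Bcl6, Gadd45a and Gadd45g fell, Gadd45a from 442 ± 8.16 to 44.7 ± 1.75 CPM. Myc was at 0.25 and 0.326 CPM, near the floor of detection, and did not pass the test. The list held 8 higher and 5 lower of 14 tested, with a median of 0.22.

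Of 11 tested genes that keep MAP kinases in check 6 were called lower and 4 higher, with a median of -0.37, beside 38.2% and 38.1% of all tested genes. Dusp1, the phosphatase of p38 and JNK, fell from 840.2, 850.5 and 826 CPM to 268, 269.7 and 279.6 CPM. Dusp6, which is specific for ERK, fell from 296 ± 6.96 to 215 ± 4.09 CPM. Dusp5, another ERK phosphatase, went the other way, from 29 ± 2.22 to 119 ± 1.87 CPM, as did Dusp16 and Spred1, with log2 fold changes of 2.79 and 3.11.

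The immediate-early genes, which answer within minutes to almost any stimulus, split at 4 h, with 11 of 22 tested called higher and 11 lower. Their unstimulated levels ranged widely, and Fos and Junb were among the high ones. Fos held 1382, 1398 and 1388 CPM before culture and 68, 65.5 and 66.8 CPM at 4 h, a log2 fold change of -4.38 ± 0.04 (edgeR adjusted p = 7.33e-67). Fosb, its paralog, fell from 21.6, 19.2 and 22 CPM to 0.99, 0.748 and 0.643 CPM. Junb fell from 1713 ± 24 to 209.6 ± 8.75 CPM, and Egr1 and Nr4a1 fell with log2 fold changes of -2.22 and -3.15. Jun rose from 74.6 ± 2.58 to 199 ± 8.81 CPM, and the small MAF factor gene Maff from 1.53 ± 0.491 to 24.5 ± 0.886 CPM. The sorting that precedes the unstimulated libraries is not matched by a library after culture alone, so its part in these levels was not tested.

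Interferon-stimulated genes rose together. Mx1, Mx2, Ifi44, Gbp6 and Iigp1 are also of this list and had too few counts to be tested. Of 38 tested members all were called higher, 31 of them at least 2-fold, and the median was 2.27. Without TMM factors 37 remained higher and Samd9l was no longer called. Gbp2, a guanylate-binding protein that attacks pathogen vacuoles, held 31.2, 30.9 and 32.9 CPM in unstimulated libraries and 1142, 1165 and 1212 CPM at 4 h, a log2 fold change of 5.21 ± 0.04 (edgeR adjusted p = 7.33e-67). Gbp5, which promotes inflammasome assembly, rose from 0.856, 0.807 and 1.02 CPM to 161, 164 and 166 CPM. The groups were far apart, with little spread within either. Oasl2, of the oligoadenylate synthetase family, rose from 164, 170.4 and 167 CPM to 3157, 3134 and 2999.8 CPM. Isg15, a ubiquitin-like modifier, rose from 14.1, 16.9 and 17 CPM to 102, 102 and 104 CPM, and Rsad2, the antiviral enzyme viperin, from 78.9, 79.6 and 78.1 CPM to 490.2, 499 and 507 CPM. Ifit1, which binds foreign RNA caps, rose from 14.1 ± 1.14 to 74.5 ± 4.18 CPM. Zbp1, a sensor of Z-form nucleic acid, and Ifi47, an interferon-inducible GTPase, rose with log2 fold changes of 4.40 ± 0.05 and 4.93 ± 0.07. At 24 h these same genes were below their 4 h level in 38 of 38 cases, where 39.6% of all tested genes were, and this count was the same without TMM factors. Gbp2 was at 4.24, 4.49 and 4.02 CPM, Gbp5 at 1.4, 1.29 and 1.13 CPM and Isg15 at 2.14, 1.18 and 1.42 CPM, while Oasl2 was still at 1081, 1099 and 1066 CPM.

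Because this list moved in 1 direction, stretches of 150 bases before the start are shown for 4 genes that rose, from RefSeq on GRCm38.p6. They were picked for holding a match, and Socs1 is not a member of this list. Of other genes that rose, Gbp5 and Irf7 had no match in this stretch, and Nlrc5 and Zbp1 had no window. They lie at chr3:142620513-142620662 on the plus strand, chr4:156200819-156200968 on the minus strand, chr19:34640739-34640888 on the plus strand and, for Socs1, chr16:10785537-10785686 on the minus strand, and each is written 5′ to 3′ on the strand of its gene. Capitals mark matches of the core of the interferon-stimulated response element (ISRE), 2 GAAA blocks with 2 bases between them, on either strand. Overlapping matches run together in Isg15 and Socs1.
Gbp2: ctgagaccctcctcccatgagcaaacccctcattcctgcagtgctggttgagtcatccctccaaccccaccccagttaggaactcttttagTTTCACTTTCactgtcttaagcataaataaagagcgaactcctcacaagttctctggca
Isg15: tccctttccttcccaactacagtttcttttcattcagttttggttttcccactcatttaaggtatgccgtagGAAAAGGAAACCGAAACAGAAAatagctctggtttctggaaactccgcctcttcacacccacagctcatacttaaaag
Ifit1: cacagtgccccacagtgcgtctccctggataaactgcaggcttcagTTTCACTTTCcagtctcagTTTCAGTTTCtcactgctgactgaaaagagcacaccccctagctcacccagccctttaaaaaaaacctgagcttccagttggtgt
Socs1: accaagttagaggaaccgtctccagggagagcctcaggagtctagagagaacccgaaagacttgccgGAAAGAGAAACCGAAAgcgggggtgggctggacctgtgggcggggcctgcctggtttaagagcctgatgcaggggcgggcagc
The motif was found in 22 of the 31 interferon-stimulated genes with a window (71%), against 4.02% of all tested genes and 3.99% of the whole table. Among all genes that were called and at least 8-fold higher the share was 7.6%, and among those at least 2-fold lower 3.37%. TTCNNNGAA was found in 29% of the interferon-stimulated genes, and the AP-1 motif in 29% as well. ISRE and STAT matches are part of how these genes are known, so their shares describe the list and not its response.

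The genes that carry and read interferon signals rose in 10 of 12 tested cases, with a median of 0.60. Both chains of the type I receptor, Ifnar1 and Ifnar2, rose, with log2 fold changes of 0.64 and 0.55, and so did both chains of the type II receptor, Ifngr1 and Ifngr2, with 1.10 and 0.33. Irf7, which drives type I interferon transcription, rose from 96.6, 97.3 and 96.2 CPM to 294, 301 and 292 CPM, and Irf9, the DNA-binding part of the ISGF3 complex, from 114 ± 1.62 to 262 ± 2.14 CPM. Irf5, a mediator of Toll-like receptor signals, rose from 40.2 ± 0.974 to 297 ± 10.2 CPM. Irf1 fell from 236 ± 1.61 to 183 ± 3.82 CPM, and Ifnlr1, the type III receptor chain, from 176 ± 1.36 to 71.9 ± 0.985 CPM. The interferon genes Ifnb1 and Ifng had too few counts to be tested.

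**Figure D2:**
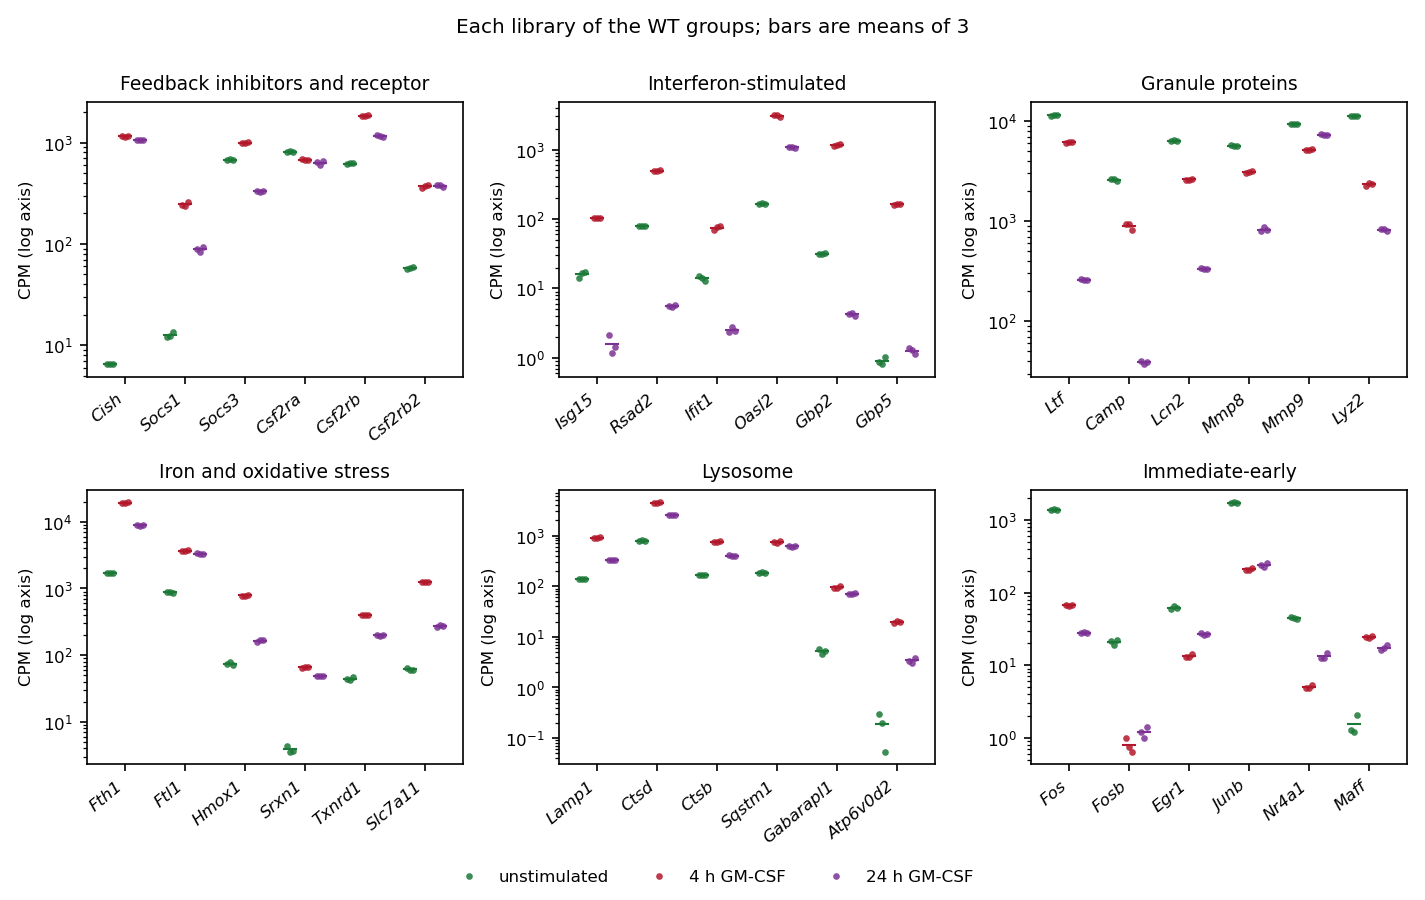
Levels in each WT library for 36 genes in 6 sets. The y axes are CPM on log scales, points are single libraries, bars are means of 3, green is unstimulated, red 4 h and purple 24 h. Replicates lie almost on top of each other. The interferon-stimulated genes shown peak at 4 h, and granule genes other than Mmp9 go on falling to 24 h.

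Most antigen presentation genes rose. Of 21 tested class I genes 16 were called higher and 2 lower, with a median of 0.81. Nlrc5, the transactivator of class I genes, rose from 8.68, 9.48 and 9.88 CPM to 477, 455 and 479.9 CPM, a log2 fold change of 5.65 ± 0.06 (edgeR adjusted p = 1.09e-62). B2m, the common light chain, rose from 729 ± 10.5 to 1275 ± 18 CPM, and the heavy chain H2-D1 from 3109 ± 37.5 to 4533 ± 122 CPM. The peptide transporter gene Tap1 rose from 130.0 ± 1.49 to 298 ± 9.75 CPM, and the immunoproteasome subunits Psmb8 and Psmb10 rose with log2 fold changes of 1.51 and 2.33. At 24 h Nlrc5 was back at 2.75, 2.5 and 3.14 CPM. Class II and costimulatory genes were called higher in 10 of 13 and lower in 1, with a median of 3.07, from low levels. Cd274, the gene of the checkpoint ligand PD-L1, rose from 11.4, 11.9 and 12.3 CPM to 366, 359 and 368 CPM, and Cd80, a ligand of CD28, from 9.79 ± 0.383 to 101 ± 4.96 CPM. Ctss, the protease that trims the class II chaperone, rose from 13.5 ± 0.72 to 291 ± 7.55 CPM. The class II chains themselves stayed low, H2-Ab1 at 0.416 and then 3.4 CPM and H2-Eb1 at 0.479 and then 8.44 CPM, although both were called higher.

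All 7 tested genes of the Fc receptor list were called higher, with a median of 1.08. They are the IgG receptors Fcgr1, Fcgr2b, Fcgr3 and Fcgr4, the signalling chain Fcer1g, and Pira2 and Pirb, paired immunoglobulin-like receptors that the list also holds, while Fcgrt and Fcer2a had too few counts to be tested. Fcgr2b, the inhibitory IgG receptor, held 37.2, 39.3 and 39.4 CPM before culture and 2431, 2408 and 2294 CPM at 4 h, a log2 fold change of 5.94 ± 0.04 (edgeR adjusted p = 4.22e-72). The activating receptors Fcgr3 and Fcgr4 rose from 689 ± 20.8 to 2580.1 ± 30.9 CPM and from 126 ± 3.86 to 242 ± 4.43 CPM, and their shared signalling chain Fcer1g from 516 ± 5.8 to 723 ± 17.7 CPM. Fcgr1, the high-affinity receptor, had 3 counts in the unstimulated libraries and 97 at 4 h, a ratio of 40.0 with a 95% counting interval of 13.3 to 197.

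Pattern-recognition genes were called higher in 17 of 28 tested members and lower in 8, with a median of 1.17. Tlr4, the receptor for lipopolysaccharide, rose from 79.1, 69.2 and 75.7 CPM to 426, 443 and 440.2 CPM, and its partner Cd14 from 39.2 ± 0.997 to 125 ± 4.3 CPM. Tlr2 and Tlr1, which pair to bind bacterial lipopeptides, rose from 324 ± 9.6 to 741 ± 7.49 CPM and from 2.64 ± 0.349 to 43.6 ± 2.97 CPM. Tlr8, an endosomal RNA receptor, fell from 77, 70.6 and 74.7 CPM to 7.01, 7.82 and 8.28 CPM. Of the C-type lectins that bind fungal surfaces, Clec4n (Dectin-2) rose from 7.76 ± 0.353 to 200.2 ± 6.17 CPM, whereas Clec4e (Mincle) fell from 331 ± 6.7 to 87.9 ± 2.07 CPM. Pycard, the inflammasome adaptor, rose from 17.8 ± 1.31 to 133 ± 2.62 CPM.

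Chemoattractant receptors were called higher in 12 of 17 and lower in 4, with a median of 0.73. Ptafr, the receptor for platelet-activating factor, rose from 236, 237 and 240.3 CPM to 1714, 1733 and 1766 CPM, a log2 fold change of 2.87 ± 0.03 (edgeR adjusted p = 5.79e-60). Cxcr2, which leads neutrophils out of the marrow and to sites of inflammation, rose from 2119 ± 12.5 to 3408 ± 49.7 CPM. Cxcr4, which holds them in the marrow, fell from 459 ± 7.69 to 309 ± 5.4 CPM. The formyl peptide receptors Fpr1 and Fpr2 fell from 429 ± 5.88 to 173 ± 2.1 CPM and from 499 ± 24.5 to 196 ± 10.5 CPM, while C5ar1, the C5a receptor, rose from 525 ± 8.72 to 796 ± 3.56 CPM. C3ar1, the C3a receptor, had no count before culture and 489 counts at 4 h, at least 202-fold higher by the same floor.

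Inhibitory and scavenger receptors were called higher in 11 of 13 tested members and lower in 2, with a median of 1.70. Cd300lf, an inhibitory receptor for lipids of dying cells, rose from 823, 853 and 835 CPM to 5122, 5053 and 4857 CPM. The leukocyte immunoglobulin-like receptor genes Lilr4b and Lilrb4a rose from 1376 ± 48.4 to 4705 ± 144 CPM and from 762 ± 41.1 to 2716 ± 66.9 CPM. These neighbours are near copies of each other, so the split of reads between them is uncertain. Cd101, a marker of mature marrow neutrophils, fell from 445 ± 3.85 to 112 ± 2.03 CPM and stood at 575 ± 2.89 CPM at 24 h.

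Secreted mediators did not rise as a block. Of 20 tested cytokine and growth factor genes 13 were called higher and 6 lower, with a median of 1.02. Il1b, abundant in the unstimulated libraries, fell from 982, 974 and 988 CPM to 199, 198 and 208 CPM. Tnfsf13b, which encodes the B cell survival factor BAFF, fell from 63.9, 65.9 and 66.4 CPM to 5.79, 4.35 and 4.34 CPM. Tgfb1 rose from 87.1, 91.6 and 88.7 CPM to 682, 661 and 689.7 CPM, a log2 fold change of 2.93 ± 0.04 (edgeR adjusted p = 6.58e-58). Csf1, the gene of M-CSF, rose from 36.6 ± 2.16 to 212 ± 8.05 CPM, Tnf from 31.8 ± 2.4 to 67.9 ± 3.05 CPM and Spp1, the gene of osteopontin, from 8.77 ± 0.493 to 115 ± 1.4 CPM. Hbegf, an EGF receptor ligand, had 3 counts in all unstimulated libraries and 3707 at 4 h, a ratio of 1530 with a 95% counting interval of 523 to 7420, and stood at 89.5, 89.7 and 97.4 CPM. Csf2, the gene of GM-CSF itself, had too few counts to be tested.

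Of 10 tested chemokine genes 7 were called higher and 1 lower, with a median of 2.49. Ccl6 was the most abundant and rose from 1478, 1478 and 1436 CPM to 5919, 6009.8 and 6012 CPM. Ccl3 and Ccl4, which call monocytes and lymphocytes, rose from 17.5 ± 1.61 to 65.8 ± 3.38 CPM and from 7.91 ± 0.57 to 88.5 ± 0.882 CPM. Cxcl2, a ligand of CXCR2, fell from 154 ± 4.35 to 103 ± 6.09 CPM, while its neighbour Cxcl3 rose from 0.536 ± 0.199 to 43 ± 1.61 CPM. Cxcl10, an interferon-inducible chemokine, rose from 0.803 ± 0.327 to 9.79 ± 0.0876 CPM.

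Adhesion and migration genes were called higher in 10 of 18 and lower in 8, with a median of 0.32. The beta chains of the integrins diverged. Itgb2, the partner of the leukocyte integrins, fell from 2958 ± 63.3 to 1929 ± 35.8 CPM and Itgb3 from 105 ± 3.35 to 16.7 ± 0.154 CPM, while Itgb1 rose from 32.3, 28.6 and 28.8 CPM to 282, 279 and 286 CPM. Itgam, the alpha chain of the complement receptor Mac-1, rose from 627 ± 7.32 to 1085 ± 28.1 CPM and Itga4 fell from 95.8 ± 4.35 to 28.9 ± 2.9 CPM. Pecam1, which guides passage through endothelium and which the stroma and endothelium markers above also hold, rose from 8.32, 9.14 and 8.33 CPM to 358, 369.6 and 373 CPM, a log2 fold change of 5.42 ± 0.05 (edgeR adjusted p = 5.43e-64).

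Granule genes fell from high levels. Of 23 tested genes of specific and gelatinase granules 15 were called lower and 5 higher, with a median of -0.85. Ltf, the iron-binding protein lactoferrin, held 11144, 11509.6 and 11477 CPM and then 6062, 6171 and 6208 CPM, a log2 fold change of -0.89 ± 0.03 (edgeR adjusted p = 7.48e-35). Camp, the cathelicidin antimicrobial peptide, fell from 2615, 2616 and 2503 CPM to 928, 930.2 and 813 CPM, and Lcn2, which captures bacterial siderophores, from 6354, 6462 and 6343 CPM to 2582, 2578 and 2662 CPM. The collagenase gene Mmp8 fell from 5643 ± 81.6 to 3123 ± 75.6 CPM and the gelatinase gene Mmp9 from 9363 ± 81 to 5191 ± 96.7 CPM. The 5 members called higher were Cd177, Adam8, Olfm4, Ltb4r1 and Itgam, of which Cd177, Ltb4r1 and Itgam encode proteins that also serve at the cell surface. At 24 h Ltf was at 265, 257 and 259.8 CPM and Camp at 40.4, 37.1 and 38.9 CPM, below 4 h by a further log2 fold change of -4.56 ± 0.04 and -4.52 ± 0.06, whereas Mmp9 stood at 7370.2, 7186 and 7214 CPM. Of 23 members, 20 were lower and 2 higher at 24 h than at 4 h, and without TMM factors 18 and 4, where 39.6% of all tested genes were lower.

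Azurophil granule genes, which belong to the promyelocyte stage, were low before culture, with Mpo at 10.3 ± 0.572 CPM and Elane at 3.3 ± 0.723 CPM. Of 11 tested, 5 were called lower and 2 higher, with a median of -0.54, and Mpo fell to 3.68 ± 0.932 CPM. Lyz2, lysozyme, was the abundant member and fell from 11184, 11213 and 11162 CPM to 2243, 2416 and 2336 CPM, a log2 fold change of -2.26 ± 0.04 (edgeR adjusted p = 3.25e-25). The calcium-binding alarmins S100a8 and S100a9, the most abundant transcripts per length of both groups, fell from 28398 ± 1005 to 14869.7 ± 442 CPM and from 40066 ± 875 to 25150.0 ± 498 CPM. In the S100 and alarmin list 7 of 10 were called lower and 2 higher. Anxa1, a brake on neutrophil recruitment, fell from 2995 ± 19.9 to 1584 ± 29.3 CPM.

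Of 8 tested genes of the NADPH oxidase list, 6 were called lower and 1 higher, with a median of -0.41. The oxidase makes superoxide in the phagosome, and the list also holds Hvcn1, a proton channel that is no subunit of it. Hvcn1 was among those called lower, and a gene on the opposite strand overlaps 44.2% of its exon bases. The catalytic subunit gene Cybb fell from 1807, 1734 and 1733 CPM to 631, 650.4 and 624 CPM, a log2 fold change of -1.47 ± 0.03 (edgeR adjusted p = 3.78e-45). The cytosolic subunit gene Ncf4 fell from 504 ± 6.91 to 235 ± 3.08 CPM, while Cyba, the partner of Cybb in the membrane, was at 582 and 614 CPM and did not pass the test.

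In the list of prostaglandin and leukotriene synthesis, which also holds receptors such as Ptger4, 10 of 15 tested were called lower and 5 higher, with a median of -0.39. Ptgs2, the inducible cyclooxygenase, fell from 189, 183 and 184 CPM to 7.01, 9.52 and 8.36 CPM, and Pla2g4a, the phospholipase that frees its substrate, from 26.8 ± 0.485 to 3.2 ± 0.285 CPM. Alox5, its activating protein gene Alox5ap and Lta4h, which together lead to leukotriene B4, fell with log2 fold changes of -0.39, -0.35 and -1.36. Hpgds, a prostaglandin D synthase, rose from 0.0945 ± 0.0841 to 7.1 ± 0.448 CPM.

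**Figure D3:**
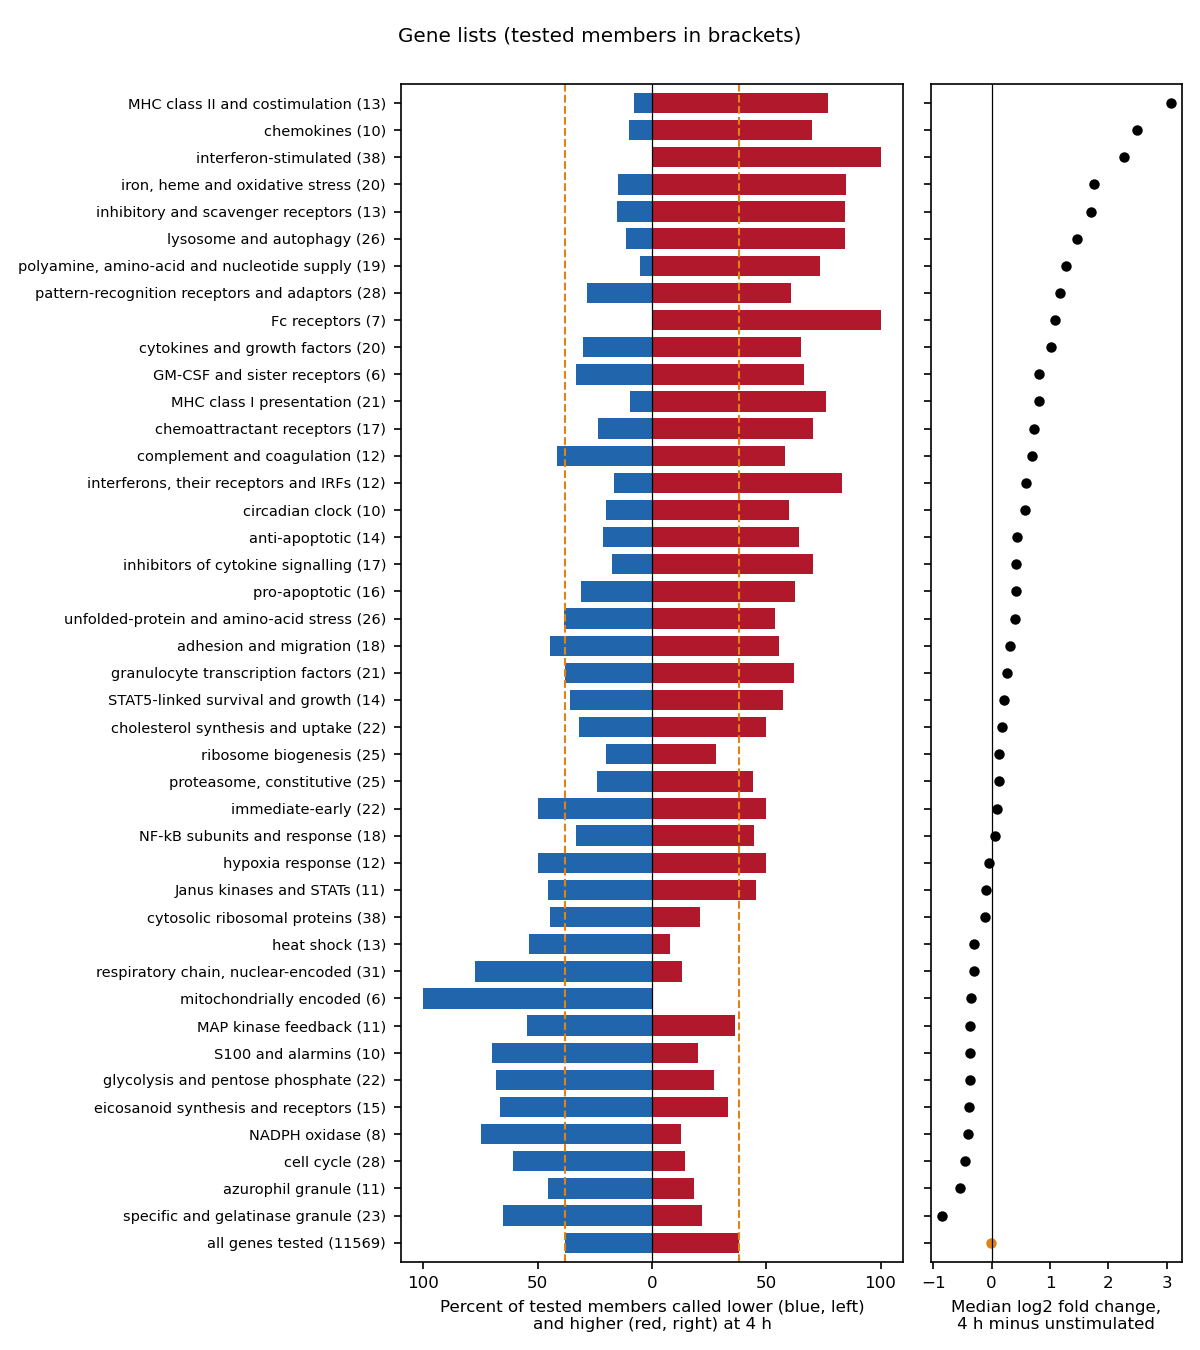
Shares of called members in 42 gene lists, with the number of tested members in brackets. On the left, bars give the percent called lower (blue) and higher (red) at 4 h, and dashed lines mark 38.2% and 38.1%, the shares over all tested genes. On the right, points give the median log2 fold change, with all genes in orange. Lists are ordered by median, with all genes as the lowest bar. The MHC class II, chemokine and interferon-stimulated lists have the highest medians and both granule lists the lowest.

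Genes of iron storage and oxidative stress rose. Of 20 tested, 17 were called higher and 3 lower, with a median of 1.75. Fth1, the ferritin heavy chain, which stores iron, held 1679, 1718 and 1685 CPM before culture and 19002, 19008 and 19479 CPM at 4 h, the largest gain in CPM of any gene, with a log2 fold change of 3.50 ± 0.04 (edgeR adjusted p = 1.25e-47). Per kilobase of exon its level in CPM went from 488.2 to 5524, and its rank among all tested genes from 73 to 5. The light chain Ftl1 rose from 886 ± 13.5 to 3667 ± 71.9 CPM. Hmox1, which breaks down heme, rose from 74.1, 77.9 and 71.4 CPM to 780.3, 775 and 807 CPM. Srxn1, Txnrd1 and Gclc, which restore peroxiredoxin, thioredoxin and glutathione, rose with log2 fold changes of 4.08 ± 0.08, 3.16 ± 0.04 and 3.13 ± 0.12. The metallothionein gene Mt1 rose from 2.23 ± 0.318 to 53.9 ± 3.76 CPM and was at 1.11 ± 0.0622 CPM at 24 h.

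Transporters and enzymes that supply amino acids, polyamines and nucleotides were called higher in 14 of 19 tested and lower in 1, with a median of 1.28. Slc7a11, the cystine carrier that feeds glutathione synthesis, rose from 63.8, 60.6 and 59.9 CPM to 1270.3, 1271 and 1260.0 CPM, a log2 fold change of 4.37 ± 0.05 (edgeR adjusted p = 2.35e-33), and its heavy chain Slc3a2 from 55.9, 52.4 and 53.2 CPM to 561, 566 and 601 CPM. Slc7a5, the leucine carrier that shares this heavy chain, rose from 2.18 ± 0.0911 to 86.3 ± 1.93 CPM. Nampt, the rate-limiting enzyme of NAD salvage, rose from 216, 203 and 207 CPM to 1598, 1628 and 1624 CPM. Odc1, the first enzyme of polyamine synthesis, rose from 14.6 ± 0.825 to 52.1 ± 1.78 CPM, and Acod1, which makes itaconate, from 48.2 ± 1.66 to 394 ± 13.2 CPM. At 24 h Slc7a11 and Nampt were lower again, at 274 and 346 CPM.

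Lysosome and autophagy genes were called higher in 22 of 26 tested members and lower in 3, with a median of 1.47, and 16 were at least 2-fold higher. Without TMM factors the counts were 20 and 4. Ctsd, the acid protease cathepsin D, rose from 775, 799 and 785 CPM to 4419.5, 4354 and 4499.9 CPM, a log2 fold change of 2.49 ± 0.04 (edgeR adjusted p = 2.17e-51). Lamp1, the main glycoprotein of the lysosome membrane, rose from 137, 139 and 139 CPM to 887, 881 and 919 CPM. Sqstm1, an autophagy receptor, and Gabarapl1, of the autophagosome coat, rose from 184 ± 5.46 to 745 ± 24.4 CPM and from 5.21 ± 0.621 to 95.8 ± 5.01 CPM. Tfec, a relative of the lysosomal regulator TFEB, rose from 0.137 ± 0.0769 to 13.8 ± 0.376 CPM.

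Because TFEB and its relatives bind the palindrome TCACGTGA, the 150 bases before the start of Ctsd are shown, chr7:142387828-142387977 on the minus strand of GRCm38.p6 from RefSeq, with the match in capitals.
Ctsd: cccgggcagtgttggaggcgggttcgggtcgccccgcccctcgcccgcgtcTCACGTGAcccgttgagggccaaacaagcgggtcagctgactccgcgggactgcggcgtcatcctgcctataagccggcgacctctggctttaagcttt
This palindrome was found in 3 of the 19 lysosome and autophagy genes with a window (15.8%), namely Ctsd, Atp6v0d1 and Atp6v1a, and in 2.43% of all tested genes. It was found in 3.81% of the genes called and at least 2-fold higher, and in 0.861% of those at least 2-fold lower. The other windows of the list hold no match of these letters, from which nothing follows about the factor.

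Genes of energy metabolism mostly fell, by small amounts. Of 22 tested genes of glycolysis and the pentose phosphate pathway 15 were called lower and 6 higher, with a median of -0.38. Slc2a3, a glucose carrier, fell from 1772, 1752 and 1775 CPM to 615, 627 and 628 CPM, while Slc2a1, another glucose carrier, rose from 82.4 ± 2.01 to 263 ± 7.76 CPM. Tkt and Tpi1 fell with log2 fold changes of -1.02 and -1.29, and the phosphofructokinase genes Pfkp and Pfkl rose with 1.38 and 1.31. Nuclear genes of the respiratory chain were called lower in 24 of 31 and higher in 4, with a median of -0.31, and without TMM factors these counts were 27 and 1. Ndufa9 of complex I fell from 11.3 ± 0.796 to 4.86 ± 0.32 CPM. Of 13 protein-coding genes of the mitochondrial genome only 6 were tested, and mt-Co2, mt-Co3 and mt-Atp6 were among those with too few counts. All 6 tested protein-coding genes of this genome were called lower, with a median of -0.35. Of these, mt-Co1 fell from 328, 316 and 316 CPM to 241, 246 and 236 CPM. The 2 tested ribosomal RNA genes of that genome, looked up after their values were seen, were called higher, mt-Rnr1 from 241 ± 5.82 to 310.2 ± 9.02 CPM and mt-Rnr2 from 1089 ± 49.9 to 1801 ± 53.7 CPM. The mitochondrial share of counts was 0.1997 to 0.2155% before culture and 0.2346 to 0.2482% at 4 h.

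Cholesterol genes moved in both directions. Of 22 tested 11 were called higher and 7 lower, with a median of 0.18. The efflux carriers Abcg1 and Abca1 rose from 93.3, 97.4 and 88.5 CPM to 884, 853 and 907 CPM and from 7.94 ± 0.544 to 34 ± 0.349 CPM, and both were lower again at 24 h, at 99 and 0.884 CPM. Of the synthesis pathway, Fdps rose by a log2 fold change of 4.22, and Sqle, which did not pass the test at 4 h with 4.36 and 5.06 CPM, was at 38 ± 1.31 CPM at 24 h. In this list 20 of 22 were higher at 24 h than at 4 h, against 35.7% of all tested genes, also without TMM factors.

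Transcription factors of the granulocyte line changed in both directions, 13 of 21 tested higher and 8 lower, with a median of 0.27. Cebpa and Cebpe, which drive early and late granulocyte maturation, fell from 52.9 ± 2.71 to 11.3 ± 0.712 CPM and from 118, 131 and 122 CPM to 38.4, 36.6 and 39 CPM. Cebpd fell from 385 ± 7.53 to 101 ± 4.31 CPM. Cebpb, which serves emergency granulopoiesis, rose from 681 ± 17.7 to 1132 ± 40.9 CPM. Bhlhe40, a repressor that shapes cytokine output in myeloid cells, rose from 26.1, 25.7 and 24.8 CPM to 1352, 1354 and 1381 CPM, a log2 fold change of 5.74 ± 0.04 (edgeR adjusted p = 2.22e-70), and was at 1113, 1116 and 1097 CPM at 24 h. NF-kB genes were called higher in 8 of 18 and lower in 6, beside 38.1% and 38.2% of all tested genes, with a median of 0.06. Without TMM factors 6 were higher and 9 lower, and the median was -0.11. Nfkb1 rose from 174 ± 2.72 to 627 ± 9.53 CPM, Rel from 58.1 ± 0.991 to 129 ± 1.91 CPM and Sod2 from 11.3 ± 0.672 to 70.9 ± 3.7 CPM, while Nfkbiz fell from 235 ± 2.43 to 74.6 ± 1.05 CPM.

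Genes on both sides of the apoptosis machinery rose more often than they fell. Anti-apoptotic genes were called higher in 9 of 14 tested and lower in 3, with a median of 0.44, and pro-apoptotic genes higher in 10 of 16 and lower in 5, with a median of 0.41. Beside Bcl2l1, above, the A1 genes Bcl2a1a, Bcl2a1b and Bcl2a1d rose to 17.5, 11.9 and 7.2 CPM from 0.571, 0.231 and 0.144 CPM. These are near-identical copies, so the split between them is uncertain. Mcl1, on which neutrophil survival depends, was at 1917 and 2107 CPM, called higher by a log2 fold change of 0.14 ± 0.03 that turned to -0.0407 without TMM factors. Bcl2l11, the gene of the death activator BIM, rose from 26.9, 28.2 and 25 CPM to 267, 268 and 275 CPM, and Bax, an effector of pore formation, from 5.63, 6.12 and 5.75 CPM to 63.7, 62.7 and 66.5 CPM. Bmf, another death activator, fell from 33.3 ± 1.36 to 10 ± 0.954 CPM.

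Cell cycle genes were called lower in 17 of 28 and higher in 4, with a median of -0.45. The list holds genes of dividing cells and also the inhibitor genes Cdkn1a, Cdkn1b and Cdkn2d. Mki67 fell from 79.4 ± 3.05 to 57.9 ± 4.5 CPM and Top2a from 57.8 ± 0.254 to 38.4 ± 0.924 CPM, and at 24 h they were at 13.5 and 6.05 CPM. Cdkn1a, the cell cycle inhibitor p21, rose from 2.51, 2.02 and 2.15 CPM to 74.7, 79.9 and 72.8 CPM.

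Stress genes moved in both directions. The list counts of this paragraph stand beside 38.1% of all tested genes called higher and 38.2% called lower. In the list of unfolded-protein and amino-acid stress 14 of 26 were called higher and 10 lower, with a median of 0.40. Xbp1, a regulator of the secretory pathway, rose from 72, 69.3 and 72.8 CPM to 1505, 1518 and 1532 CPM, while Hspa5, the chaperone BiP, was at 289 and 267 CPM and called lower. Sesn2 and Trib3, which answer amino-acid shortage through ATF4, rose from 154 ± 2.7 to 678 ± 16.1 CPM and from 4.15 ± 0.632 to 22.5 ± 1.21 CPM, and Atf4 itself fell from 195 ± 2.71 to 135 ± 2.98 CPM. Heat shock genes were called lower in 7 of 13 and higher in 1, with a median of -0.30. The hypoxia list split with 6 higher and 6 lower of 12, among them Egln3, an oxygen sensor, from 27.5 ± 1.99 to 855 ± 17.2 CPM, and Hif1a from 92.4 ± 0.763 to 495 ± 11.8 CPM. Cytosolic ribosomal protein genes were called lower in 17 of 38 and higher in 8 with a median of -0.11, ribosome biogenesis genes higher in 7 of 25 and lower in 5, and constitutive proteasome genes higher in 11 of 25 and lower in 6. Counts of several lists depend on scaling. For these 3 lists they were 28 lower and 3 higher, 7 higher and 7 lower, and 7 higher and 9 lower without TMM factors.

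**Figure D4:**
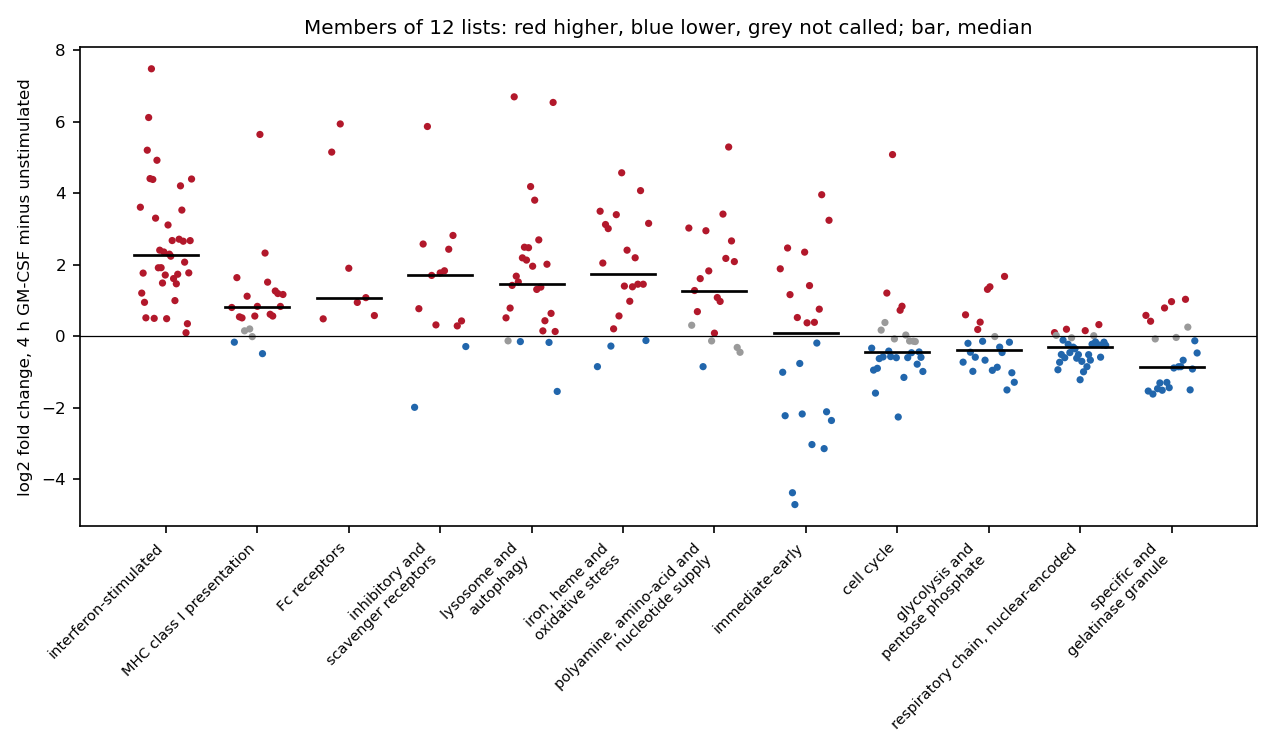
Each tested member of 12 lists. The y axis is the log2 fold change, 4 h minus unstimulated, red points were called higher, blue lower and grey neither, and black bars are medians. Interferon-stimulated members all lie above 0, immediate-early members spread from -4.71 to 3.96, and respiratory chain members sit close to their median of -0.31.

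Coagulation genes held large changes in both directions. In the complement and coagulation list 7 of 12 were called higher and 5 lower, with a median of 0.70. The protease genes F10 and F7, coagulation factors X and VII, rose from 0.306, 0.739 and 0.591 CPM to 251, 245 and 254 CPM and from 0.183, 0.269 and 0.215 CPM to 43.8, 34.8 and 38.6 CPM, while F3, tissue factor, fell from 4.25 ± 0.314 to 1.02 ± 0.252 CPM and C3, the central complement protein, from 1361 ± 39.3 to 678 ± 27.3 CPM. Thbs1, thrombospondin, rose from 960.4, 966 and 982 CPM to 3145, 3076 and 3244 CPM. Of 10 clock genes 6 were called higher and 2 lower, Per2 rising from 23.2 ± 1.23 to 65.5 ± 1.28 CPM and Per1 falling from 130.5 ± 1.5 to 53.9 ± 3.74 CPM.

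The 10 largest rises among genes with at least 20 CPM in a group were Hbegf, Dab2, Best1, Rab15, Cmklr1, F10, Ly6a, Scimp, P2ry14 and Fam167a. Rab15, a small GTPase of endosome recycling, held 0.245, 0.336 and 0.43 CPM before culture and 241, 246 and 269 CPM at 4 h, a log2 fold change of 9.49 ± 0.10 (edgeR adjusted p = 4.94e-63). Cmklr1, the receptor of the attractant chemerin, rose from 0.122, 0.0672 and 0.0537 CPM to 56.6, 56.6 and 58.7 CPM, and Ly6a, the surface protein Sca-1, from 0.245, 0.336 and 0.376 CPM to 112, 108 and 113 CPM. Dab2, an endocytic adaptor, and Best1, a chloride channel, had 1 and 2 counts before culture and 935 and 1395 at 4 h. Their ratios are 1160 with a 95% counting interval of 207 to 45700, and 863 with one of 238 to 7130. Scimp, an adaptor at immune synapses, rose from 0.229 ± 0.115 to 74.2 ± 1.73 CPM and P2ry14, a receptor for UDP-sugars, from 0.132 ± 0.118 to 40.3 ± 0.528 CPM.

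Among the 10 largest falls were Fosb, Ptgs2, Fos, Lima1, Vnn3, Ear2, Ankrd9, Tex15 and Sntb1. Vnn3, a pantetheinase, fell from 73.8, 73.5 and 73.1 CPM to 3.43, 4.35 and 5.14 CPM. Ear2, an eosinophil-associated ribonuclease, fell from 21.6 ± 1.33 to 1.29 ± 0.488 CPM, Lima1, an actin regulator, from 21.2 ± 0.574 to 1.25 ± 0.515 CPM, and Sntb1, a syntrophin, from 30.5 ± 1.45 to 2.15 ± 0.621 CPM. By CPM the 8 largest gains were Fth1, Ccl6, Cd300lf, Ctsd, Srgn, Slfn4, Lilr4b and Oasl2, and the 8 largest losses S100a9, S100a8, Lyz2, Ltf, Retnlg, Ngp, Mmp9 and Lcn2. Srgn, the proteoglycan that packs granule contents, rose from 893 ± 18 to 4476 ± 75.5 CPM and Slfn4, a Schlafen protein, from 2399 ± 59.7 to 5862 ± 236 CPM. Retnlg, a resistin-like peptide of marrow neutrophils, fell from 8438 ± 34.5 to 3987 ± 164 CPM and Ngp, neutrophilic granule protein, from 11407 ± 68.3 to 7159.6 ± 68.6 CPM.

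**Figure D5:**
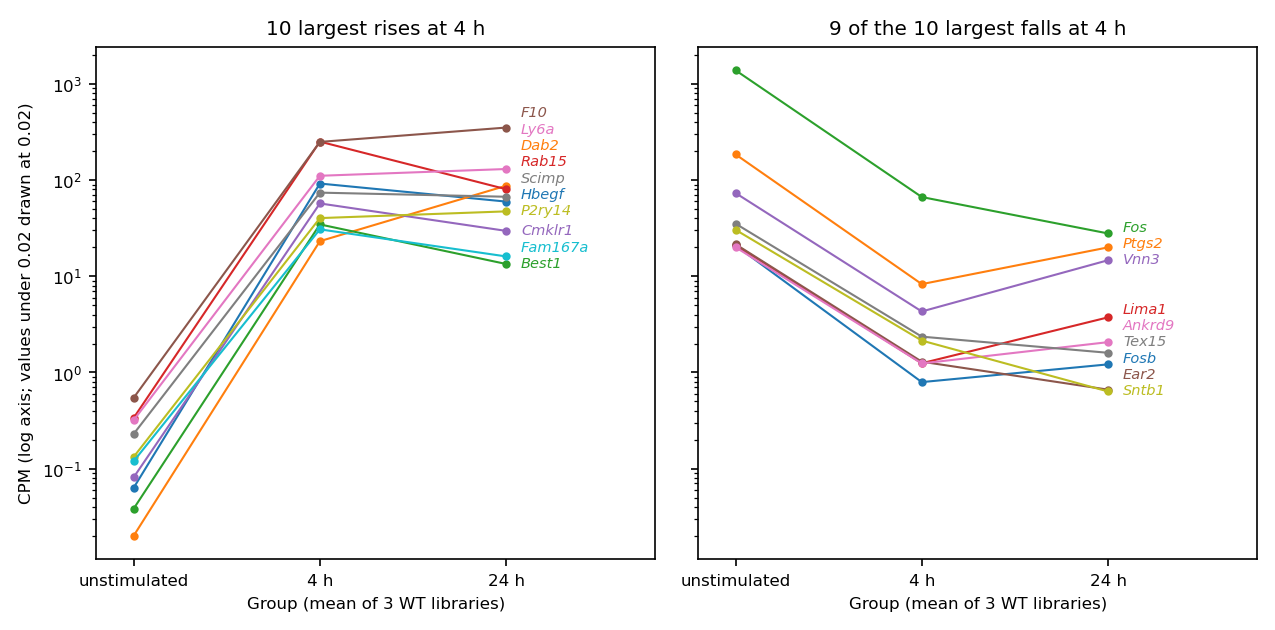
Mean levels of the 10 largest rises (left) and of 9 of the 10 largest falls (right) at 4 h in unstimulated, 4 h and 24 h WT libraries. The y axis is CPM on a log scale, and lines join means of 3 libraries. F10 was at 249.9 CPM at 4 h and 352 CPM at 24 h, less than 2-fold apart. Rab15 went from 252 CPM at 4 h to 80.5 CPM at 24 h and Ptgs2 from 8.29 to 20 CPM.

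Levels at 24 h were compared with those at 4 h in the same fit, and both comparisons share the 4 h libraries. Of 11569 genes 8714 (75.3%) were called, 4128 (35.7%) higher and 4586 (39.6%) lower at 24 h, and 29.9% were called and at least 2-fold apart, 13.8% higher and 16.1% lower. This split depends on scaling, since TMM factors were 1.282 to 1.29 at 24 h, and without them 6763 genes were higher and 2506 lower. A direction at 24 h is therefore given only for genes that were called and differed at least 2-fold from 4 h, and for lists whose counts without TMM factors are given or unchanged. Among the 4 h responses, Dab2 went on rising to 84.4, 91.5 and 86.6 CPM and C3ar1 to 42, 43.2 and 38.5 CPM, and Bcl2a1a stood at 67.1, 73.7 and 66.2 CPM. Spp1 returned to 4.89, 6.22 and 5.59 CPM, Il3ra to 2.19, 2.23 and 2.11 CPM and Atp6v0d2 to 3.35, 3.1 and 3.83 CPM, all lower than at 4 h. Csf1r was higher at 24 h than at 4 h, at 164, 161 and 163 CPM, and so was Adgre1, the macrophage antigen F4/80, which went from 58.8, 56.7 and 58.8 CPM before culture through 93.1, 95.8 and 98.6 CPM to 348, 354 and 331 CPM.

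Some levels are uncertain because gene models overlap. Exons of a tested gene on the opposite strand cover 51.4% of the exon bases of Rac1, 44.2% of Hvcn1, 20.7% of Cebpb, 15.1% of Csf1r, 15% of Cebpd, 14.1% of Irf5 and 11.3% of Myd88, and whether the counting used strand is not stated in these sources. The partners of these genes were at most 135.3 CPM at 4 h, Tmem189 beside Cebpb being the highest. Some other list members had opposite-strand partners above their own level at 4 h. Psmb7 went from 36.8 to 52.9 CPM, and Nek6, over 11.8% of its exon bases, from 32.7 to 555 CPM. Erap1 went from 13 to 40.6 CPM, and Cast, over 11.5% of its exon bases, from 213 to 394 CPM. Psmb7 and Erap1 were both called higher. The start of Cish is also overlapped by Gm17040 on the opposite strand. Reads of Fth1, ribosomal protein genes, class I heavy chains, Csf2rb with Csf2rb2, and the Gbp, Oas, Ifit and Slfn families may be shared with near copies.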

How the data were processed

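RNA sequencing of sorted WT neutrophils was analysed in 3 unstimulated, 3 4 h and 3 24 h libraries out of 18. The authors deposited raw counts of reads by Ensembl gene ID, made by trimming (Trimmomatic), alignment to mm10 (STAR) and counting (featureCounts), per the submitters' processing notes. Their versions, annotation release and strand setting were not given in the sources used here. Libraries came from a directional kit, per the labels' protocols. The labels' treatment protocol gives 42 h where titles give 24 h, and 24 h was used. GENCODE M21 named 53274 of the 53379 IDs; 0.0238% of the counts fell on the rest.

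Groups were taken from the labels. In R 4.3.3 with edgeR 4.0.16, filterByExpr by group kept 11569 genes and 99.928% of the counts, TMM factors were computed, and 1 robust quasi-likelihood model of 6 groups was fitted to 18 libraries, with a common biological coefficient of variation of 3.3%. The contrasts 4 h minus unstimulated and 24 h minus 4 h were tested two-sided with Benjamini-Hochberg adjustment over all genes tested. CPM were computed with TMM factors. Where a group had no count, its floor of 3 counts over the group gives a bound, and a gene with 1 to 3 counts is given as a ratio with an exact 95% interval, which covers counting error only.

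The members and gene lists were chosen with earlier results of these data known. Names come from a rule: Cish, the 10 largest rises and falls with at least 20 CPM in a group, non-overlapping groups and no clone, predicted gene or pseudogene, the 8 largest gains and losses of CPM, and for each list the first 4 written members and the 6 called with the largest change and at least 5 CPM, or any member of lists with up to 12 tested, and members named for contrast; some of these genes are not reported here. Lists share members, and members with few counts were not tested.

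Replicates differed beyond sampling noise, with a chi-square per degree of freedom of 1.452 to 1.881 between pairs. The model was tested on simulated counts with known changes. Alternatives were RLE factors, no TMM factors, DESeq2 1.42.0, limma-voom (limma 3.58.1), no or a strict low-count filter, only the groups compared, a block for replicate number, leaving out each library and a 2-fold minimum.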

Additional observations from a re-analysis of the deposited data

How the results depend on the processing

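At 4 h, 4404 genes were higher and 4422 lower. RLE factors gave 4407 and 4424, DESeq2 4281 and 4233, limma-voom 4401 and 4407, no low-count filter 4661 and 4441 of 23986 tested, a minimum of 50 counts in 3 libraries 3747 and 3764 of 9054, and a fit of the compared groups only, without the libraries labelled CIS-/-, 4183 and 4302. Leaving out each library in turn gave 4268 to 4323 higher and 4207 to 4360 lower, and for 24 h against 4 h 3940 to 4088 higher and 4446 to 4486 lower. With a 2-fold minimum the counts were 2122 and 1882 at 4 h and 1598 and 1865 for 24 h against 4 h, by construction. With a replicate block the 4 h counts were 4408 and 4422, and 8796 of 8826 calls were kept. Deviations of same-numbered libraries from their group means had correlations of -0.0314, -0.0258 and 0.0294. With 3 libraries a group and little spread among them, these values cannot show whether the numbers pair the libraries.

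Scaling mattered most. Without TMM factors the 4 h counts were 3623 higher and 5315 lower, 40.5% of the calls being higher against 49.9%, and the median of all genes moved from -0.0156 to -0.192. For 24 h against 4 h they were 6763 and 2506, 73% higher against 47.4%, with a median of 0.448 against -0.0369. Sign changes without TMM factors are listed only for named genes called with or without these factors. The sign turned for Csf3r (-0.0247), Jak1 (-0.0603), Mcl1 (-0.0407), Irf3 (-0.0315), Ndrg1 (-0.0548) and Srebf2 (-0.0143), all called before and not called after. It also turned for Cyba (-0.10), Rela (-0.14), Atp5b (-0.15), Rplp0 (-0.15) and S100a6 (-0.16), not called before. Beside the 11 sign changes named here, 52 values of named genes over all alternatives lost the call, in 19 genes, and 12 gained it, in 10. The other 5596 kept their call and direction, or were uncalled in both fits whatever their direction. List medians changed sign without TMM factors for immediate-early (-0.08), NF-kB (-0.11), ribosome biogenesis (-0.04) and proteasome genes (-0.05), and for monocyte and macrophage markers from -0.48 to 0.31 with the strict filter and 0.32 with the compared groups only, where fewer members were tested; the complement and coagulation median was 0 with no filter, where more were. With 3 libraries a group, the 4 h difference could not be told from time in culture, and depth limits genes under 1 CPM.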

Other observations

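Transcripts that code for no protein were counted by type, with no test between types. Of 324 tested lincRNA genes 164 were called higher and 71 lower at 4 h, 138 and 51 of them at least 2-fold, with a median log2 fold change of 0.69. Of 259 antisense genes 110 were called higher and 54 lower, with a median of 0.46, and of 40 long noncoding genes at bidirectional promoters 22 were called higher and 5 lower, with a median of 0.73. Of 10185 protein-coding genes 3847 were called higher and 4094 lower, with a median of -0.05. Of 13 snoRNA genes 1 was called higher and 7 lower. Whether the counting used strand is not stated in these sources, and reads of an antisense gene and its partner may therefore not be told apart. The counts also differed by level. Of 1374 genes under 1 CPM in both groups 387 were called higher and 204 lower, and of 198 genes over 1000 CPM in a group 123 were called higher and 68 lower.

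Ranked by CPM per kilobase of exon, S100a9, S100a8, Retnlg and Ngp held the first 4 places in both groups. Places below them changed. Ccl6 went from rank 32 to 7, Ftl1 from 46 to 9, Srgn from 84 to 11 and Ctsd from 102 to 12. Wfdc17, a small secreted protein of the whey acidic protein family that was picked after its values were seen, went from 105.1 to 1778 in this unit and from rank 394 to 14. Lcn2 went from rank 11 to 35, Hp, the hemoglobin scavenger haptoglobin, from 15 to 67 and Camp from 8 to 28.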
